A study of Mus musculus with 6 samples.

Results

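The lysophospholipid acyltransferase and phospholipase genes Lpcat1, Lpcat2, Lpcat3, Mboat7, Pla2g4a, Pla2g15, Pld1, Pld3 and Pld4 were examined in microglia sorted by their load of lipid droplets. The genes were chosen by symbol, for their function, and all 9 were found among the 15912 genes of the deposited table. All samples came from the hippocampus of male C57BL/6 mice, 3 months old, that had received lipopolysaccharide (LPS, an endotoxin of Gram-negative bacteria used to provoke inflammation) into the peritoneum at 1 mg/kg for 4 days and were perfused 24 h after the last dose. Each sample pooled the hippocampi of 2 mice. From each, about 10000 live CD11b+CD45lo cells, the usual gate for microglia, were purified, and the dye of neutral lipids BODIPY divided them into a BODIPY-low and a BODIPY-high gate with 3 libraries each. Both gates carried the LPS treatment, and saline-treated mice were not analysed here.

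Membrane phospholipids are rebuilt in a cycle in which a phospholipase A2 cuts off a fatty acid and a lysophospholipid acyltransferase puts another in its place, which sets how saturated a membrane is and how much arachidonic acid it stores. In macrophages the cycle also feeds the synthesis of eicosanoids and of platelet-activating factor (PAF). Phospholipases D release the head group and leave phosphatidic acid, although Pld3 and Pld4, lysosomal members of that superfamily, are known above all as exonucleases of single-stranded nucleic acids that limit the sensing of nucleic acids by Toll-like receptors. Since phosphatidylcholine coats lipid droplets, the comparison between gates asks whether transcripts of this machinery differed with droplet load.

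None of the 9 genes passed the test between gates, and with the deposited scaling the 95% interval of each stayed within 1.5-fold. In limma on log2(normalized count + 1), all 9 entered, and 0 were called at an adjusted p under 0.05 (the Benjamini-Hochberg value over 12767 genes). Of all genes tested, 2.03% were called higher and 0.0235% lower in the BODIPY-high gate. The widest 95% interval of the 9 genes, unadjusted and for 1 gene at a time, reached a log2 change of -0.52, which is a 1.43-fold difference. edgeR on recovered reads (1.75% of genes called) and DESeq2 (3.89%) also called 0 of the 9. Same-numbered libraries of the gates varied together, and with the library number as a block limma called 4.37% of genes higher and 0.462% lower, again with 0 of the 9.

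Log2 changes were negative for 7 of the 9 genes and positive for 2, with a median of -0.13 against -0.004 for all genes tested. After division by microglia markers (described further on) all 9 were positive, but so was the median of all genes, 0.23 against 0.11 for the 9. Of the 1876 genes at least as abundant as the least abundant of the 9, 57.5% were negative, with a median of -0.023. At an unadjusted p under 0.05, 1 of the 9, Pld3, was higher (8.03% of all genes) and 0 were lower (2.27%). With the block Pld3 was again higher and 2 were lower, Lpcat2 (95% interval from -0.36 to -0.013) and Lpcat3 (from -0.36 to -0.019). None of these genes was called after adjustment in that fit. In it 2278 of 12767 genes had an unadjusted p under 0.05 in either direction, against 1315 without the block. Their split by direction was not counted. The libraries of the gates did not overlap for 2 of the 9, both lower in the BODIPY-high gate, a pattern found in 5.95% of all genes in that direction and in 10.4% in the other. These 2 were Lpcat1 and Pla2g15, and in both the nearest libraries of the gates were almost equal.

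**Figure D1:**
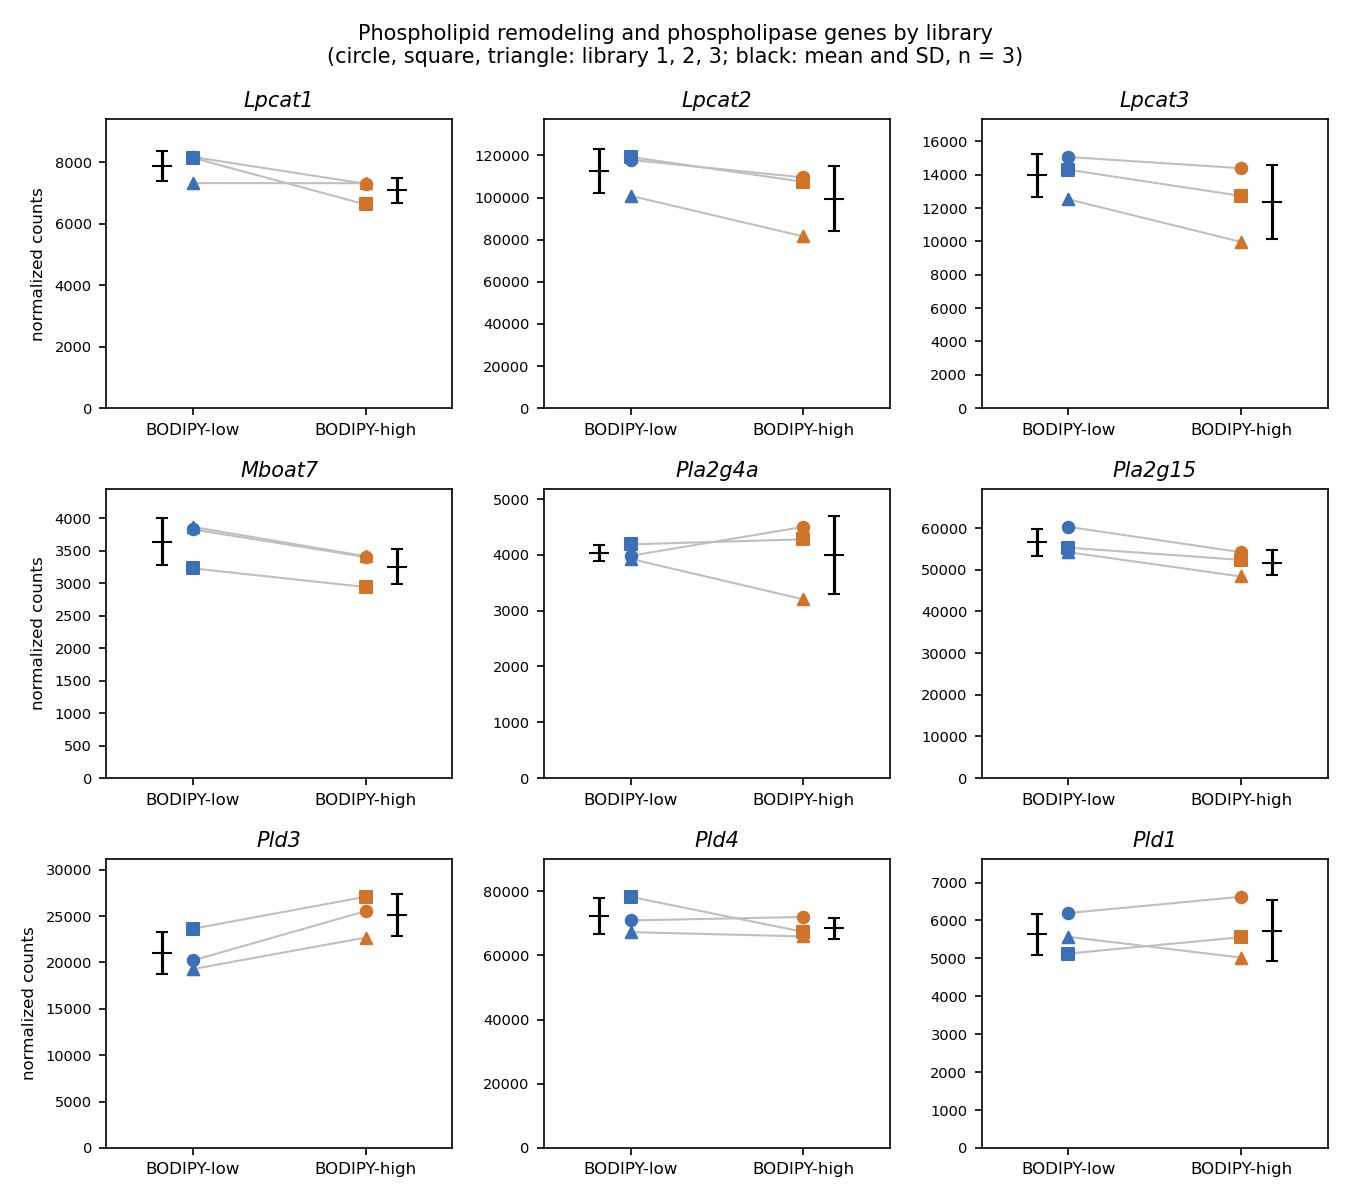
Normalized counts (vertical axes, from 0) of the 9 genes in BODIPY-low (blue) and BODIPY-high (orange) libraries, with lines joining libraries of the same number and black bars for the mean and SD (n = 3). With this deposited scaling Lpcat1, Lpcat2, Lpcat3, Mboat7 and Pla2g15 were lower in the BODIPY-high library of each of the 3 pairs and Pld3 was higher in each. The share of all genes with the same direction in every pair was not counted, so this is not given as a trait of the 9.

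All 9 genes were well expressed. They took 0.739 to 0.827% of the normalized counts of a BODIPY-low library and 0.686 to 0.789% of a BODIPY-high library, from 2952 to 115652 reads per gene and library. Levels between genes were compared as normalized counts per kilobase of the longest coding transcript. On that scale the mean over the 6 libraries fell from Lpcat2 (37741) over Pld4 (35471), Pla2g15 (20004), Pld3 (10046), Lpcat3 (5773), Lpcat1 (2036), Pla2g4a (1406) and Mboat7 (1199) to Pld1 (1172). The ranges of Lpcat2 and Pld4 overlapped, as did those of Pla2g4a, Mboat7 and Pld1, and each of the other neighbours in this order was separated in all libraries. Per kilobase of all annotated exons the BODIPY-low means of Lpcat2 (33254), Pld4 (20846) and Pla2g15 (18788) left Pld4 nearer to Pla2g15 than to Lpcat2. On that length Pla2g4a (631), Mboat7 (437) and Pld1 (434) were also lower, and over all libraries Pld1 ranked above Mboat7. Lpcat2, Pld4 and Pla2g15 stood at the percentiles 99.7, 99.7 and 99.5 of 14151 genes with a length, and Pld1, the lowest, at 86.6.

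Among the acyltransferases, Lpcat2 was the main transcript. The enzyme makes phosphatidylcholine and also acetylates lyso-PAF to PAF, and it is known as the inflammatory member of the family. Lpcat2 (chromosome 8, 92855339 to 92919279, GRCm38) had 117893, 119270.1 and 100831 normalized counts in BODIPY-low libraries 1, 2 and 3 and 109534, 107474 and 81530.4 in BODIPY-high libraries 1, 2 and 3. The gates overlapped, BODIPY-high library 3 stood below the rest, and each BODIPY-high library was lower than the BODIPY-low library of its number. Means were 112665 ± 10271 and 99513 ± 15607 (SD, n = 3 per gate), a log2 change of -0.19 ± 0.15 (SE; limma adjusted p = 0.776). With BODIPY-high library 3 left out, the log2 change was -0.050.

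Lpcat3, which puts polyunsaturated fatty acids into phosphatidylcholine and is a target of the sterol-sensing liver X receptors, varied like Lpcat2. Its gene (chromosome 6, 124663027 to 124704418) had 15071, 14307 and 12532 normalized counts in the BODIPY-low libraries and 14397, 12735 and 9972 in the BODIPY-high libraries. The lowest value was again that of BODIPY-high library 3 and the gates overlapped. The log2 change was -0.19 ± 0.14 (SE; limma adjusted p = 0.762), and -0.041 without that library. Across the 6 libraries the log2 values of Lpcat2 and Lpcat3 had a Pearson coefficient of 0.966, the highest for both genes among the 9, which describes libraries that share their scaling and, by number, may share animals.

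Lpcat1, the acyltransferase known for saturated phosphatidylcholine of lung surfactant (chromosome 13, 73467197 to 73516422), had 8173, 8146 and 7322 normalized counts in the low gate. In the high gate it had 7301, 6627 and 7318. All BODIPY-high libraries were below all BODIPY-low libraries, but low and high library 3 differed by a ratio of only 0.9995. The log2 change was -0.15 ± 0.091 (SE; limma adjusted p = 0.658).

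Mboat7, which returns arachidonic acid to phosphatidylinositol (chromosome 7, 3677789 to 3693523), had 3831, 3231 and 3871 normalized counts in the BODIPY-low libraries and 3406, 2943 and 3418 in the BODIPY-high libraries. The gates overlapped only through BODIPY-low library 2, and the pairs had ratios of 0.889, 0.911 and 0.883. The log2 change was -0.16 ± 0.11 (SE; limma adjusted p = 0.722).

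The 2 phospholipases A2 act in different places. Pla2g4a encodes the cytosolic enzyme that releases arachidonic acid for eicosanoids, and Pla2g15 the enzyme that breaks down phospholipids within lysosomes. Pla2g4a (chromosome 1, 149829618 to 149961290) had 3985, 4190.1 and 3931 normalized counts in the low gate and 4504, 4280.5 and 3204 in the high gate. BODIPY-high libraries 1 and 2 were thus the highest of the 6 and library 3 the lowest. The log2 change was -0.029 ± 0.13 (SE; limma adjusted p = 0.974) and took the other sign, 0.12, without BODIPY-high library 3.

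Pla2g15 (chromosome 8, 106150399 to 106164715) had 60296, 55309.8 and 54220.3 normalized counts in the low gate and 54213, 52364 and 48382 in the high gate. The gates did not overlap, although BODIPY-low library 3 and BODIPY-high library 1 were nearly equal. Means of 56609 ± 3239 and 51653 ± 2979.5 (SD, n = 3 per gate) gave a log2 change of -0.13 ± 0.10 (SE; limma adjusted p = 0.766).

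Pld3 had the largest change of the 9 genes, and with the deposited scaling it was the only one of them higher in every pair. The share of all genes higher in every pair was not counted. Pld3 (chromosome 7, 27532000 to 27553218, GRCm38) had 20217, 23639 and 19287 normalized counts in BODIPY-low libraries 1, 2 and 3 and 25538, 27087 and 22689.9 in the BODIPY-high libraries. Each BODIPY-high library was above its partner, by ratios of 1.263, 1.146 and 1.176, but BODIPY-low library 2 lay above BODIPY-high library 3, so the gates overlapped. Means were 21048 ± 2292 and 25105 ± 2230.2 (SD, n = 3 per gate), so that the second was 19.3% higher, a difference that did not pass the test. The log2 change was 0.26 ± 0.11 (SE; limma adjusted p = 0.479), with a 95% interval from 0.002 to 0.51. With the library number as a block the adjusted p was 0.0701, the lowest of the 9 genes in that fit.

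Pld4, the related lysosomal exonuclease gene (chromosome 12, 112760655 to 112768990), did not show that pattern. It had 70924, 78302 and 67285 normalized counts in the low gate and 72012, 67352 and 65939.9 in the high gate. One pair was higher and 2 were lower, for a log2 change of -0.075 ± 0.11 (SE; limma adjusted p = 0.896). Pld1, the phospholipase D that makes phosphatidic acid from phosphatidylcholine (chromosome 3, 27938695 to 28133362), had 6197, 5127 and 5568 in the low gate and 6625, 5559 and 5019 in the high gate, with overlapping gates. Its log2 change was 0.021 ± 0.12 (SE; limma adjusted p = 0.983).

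**Figure D2:**
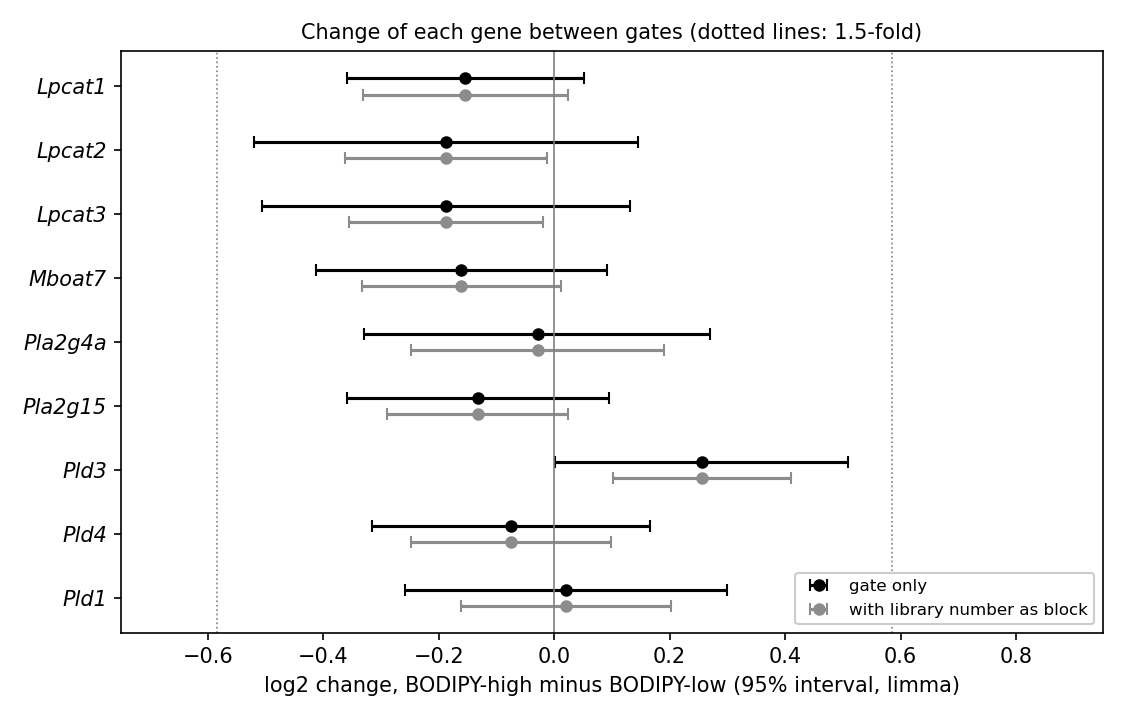
Log2 change of each gene between gates (horizontal axis, BODIPY-high minus BODIPY-low) with 95% intervals from limma, without (black) and with (grey) the library number as a block. All intervals lie within the dotted lines at 1.5-fold, and the interval of Pld3 starts at 0.002 without the block and at 0.10 with it.

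Because Pld3 and Pld4 are paralogs of the same compartment, the ratio of their normalized counts was taken within each library, where scaling between libraries cancels. This ratio was chosen after the values had been seen. It was 0.285, 0.302 and 0.287 in the BODIPY-low libraries and 0.355, 0.402 and 0.344 in the BODIPY-high libraries, so all BODIPY-high libraries were above all BODIPY-low libraries. The ratio of the gates was 1.26, and 1.20 to 1.30 with any 1 library left out. Since it was chosen for its values, it is given as a description, with no test.

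The promoters of this pair are shown because Pld3 had the largest change of the 9 genes and Pld4 is its nearest relative among them. Each is given as the 250 bases before the start site from RefSeq (GRCm38.p6), on the gene's strand, with capitals for the sequence GGAAGT, the core recognised by PU.1 and other ETS factors, read on either strand. RefSeq promoters were found for all 9 genes. Pld3 lies on the minus strand at chr7:27553219-27553468 and Pld4 on the plus strand at chr12:112760405-112760654.
Pld3: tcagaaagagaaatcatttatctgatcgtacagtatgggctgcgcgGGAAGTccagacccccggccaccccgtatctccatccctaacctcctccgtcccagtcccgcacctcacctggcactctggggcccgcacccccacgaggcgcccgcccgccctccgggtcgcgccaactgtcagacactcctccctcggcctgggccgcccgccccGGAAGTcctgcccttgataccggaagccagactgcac
Pld4: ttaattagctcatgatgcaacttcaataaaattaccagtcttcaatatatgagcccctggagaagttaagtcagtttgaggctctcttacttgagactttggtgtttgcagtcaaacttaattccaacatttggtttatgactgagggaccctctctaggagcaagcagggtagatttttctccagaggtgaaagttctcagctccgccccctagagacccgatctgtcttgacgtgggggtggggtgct
The Pld3 sequence held 2 matches and the Pld4 sequence 0, and 19.7% of 32851 promoters of the same length held at least 1. Of 11 promoters of the 9 genes, 3 held it, those of Pla2g4a, Pld1 and Pld3. The longer GAGGAAGT, which contains GGAAGT, and the E-box CACGTG were in 0 of the 11 (2.44% and 6.02% of all promoters), and TATAAA was in 2 (12.4%). These matches describe letters and not binding. The transcripts of Pld3 and Pld4 shared at most 28 identical bases in a row, the longest run for any 2 of the 9 genes.

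Annotation could affect 3 of the counts. Exons of Lpcat2 overlap those of the antisense gene Gm45472 over 287 bases, those of Lpcat3 overlap Emg1 over 334 bases and those of Mboat7 overlap Tsen34 over 277 bases, each on the opposite strand (8.47, 10.2 and 3.32% of exonic bases). The library kits do not mark strand, so reads from these stretches cannot be told apart. The other 6 genes shared no exonic base with another gene in GENCODE release M21.

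The sorted cells carried microglial transcripts in both gates, and markers of other cells differed between them. The 15 microglia markers summed to 3322467 to 3734880 normalized counts in the BODIPY-low libraries and to 2642308 to 3422665 in the BODIPY-high libraries, with 0 of 15 called and a median log2 change of -0.26. Of 12 markers of border-associated macrophages, 9 were called higher, and their sums were 2739 to 7992 and 23512 to 87857. All 7 choroid plexus markers were called higher (308 to 2322 and 39648 to 51943), as were 3 of 8 astrocyte, 2 of 7 oligodendrocyte and 2 of 4 oligodendrocyte precursor markers tested. Enpp2, a choroid plexus marker that is also a phospholipid gene described below, alone gave 132 to 1341 and 26481 to 34209 of the choroid plexus sums. Among 8 endothelial, 3 neuron, 6 monocyte, 7 neutrophil and 7 dendritic cell markers, 0 were called. Syt1 and Gad1, defining genes of neurons, and Pdgfra, of oligodendrocyte precursors, were at 0 in all BODIPY-low libraries. BODIPY-high library 3 had the lowest sum of microglia markers. It had the highest sums of border-associated macrophage, neutrophil (163759, next 112118), monocyte (32574, next 25324), oligodendrocyte (14606, next 8532) and oligodendrocyte precursor markers (336, next 89.1). It was also the library in which 6 of the 9 genes (Lpcat2, Lpcat3, Pla2g4a, Pla2g15, Pld4 and Pld1) were lowest. The share of all genes lowest in that library was not counted, so this is not given as a trait of the 9. The part of these marker differences in the values of the 9 genes was not tested. In bulk samples fewer cells of a type and less RNA per cell cannot be told apart.

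The 9 genes were therefore also set against the microglia markers, a scaling added after the values had been seen. The geometric mean of the 15 markers, relative to its mean over libraries, was 1.12, 1.09 and 1.05 in BODIPY-low libraries 1, 2 and 3 and 1.03, 0.938 and 0.812 in the BODIPY-high libraries. Dividing by it moved the median log2 change of all genes by 0.24. Under this scaling Lpcat2 had 105115, 109548 and 96084 in the low gate and 106782, 114644 and 100466 in the high gate, a log2 change of 0.051 ± 0.10 (SE; limma adjusted p = 0.807). Lpcat3 had the same change (0.051 ± 0.11, SE; limma adjusted p = 0.815). For both genes the sign turned positive and the change was smaller than its standard error. Relative to the shift of all genes it was -0.19, which repeats the deposited scaling, since a factor per library moves all well expressed genes nearly alike.

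Pld3, already the most positive of the 9, had to keep the largest change here, since the scaling moved all 9 upward by nearly the same amount. It had 18026, 21712 and 18379 in the low gate and 24896, 28894 and 27959.6 in the high gate, with no overlap. Its log2 change of 0.49 ± 0.11 (SE) had an adjusted p of 0.0497 in limma, just under the threshold, where 2.8% of all genes were called higher and 0% lower. Relative to the shift of all genes the change was 0.26, which by construction is the value of the deposited scaling. It was the only one of the 9 called, and the log2 changes of the other 8 were 0.051 to 0.26 (limma adjusted p of 0.261 to 0.815). Pla2g4a and Pld1 also had no overlap between gates here, both higher in the BODIPY-high gate. The share of all genes without overlap was not counted under this scaling, which moves the values of most genes upward in that gate. With the deposited scaling the gates overlapped for both genes, and their log2 changes were -0.029 and 0.021.

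**Figure D3:**
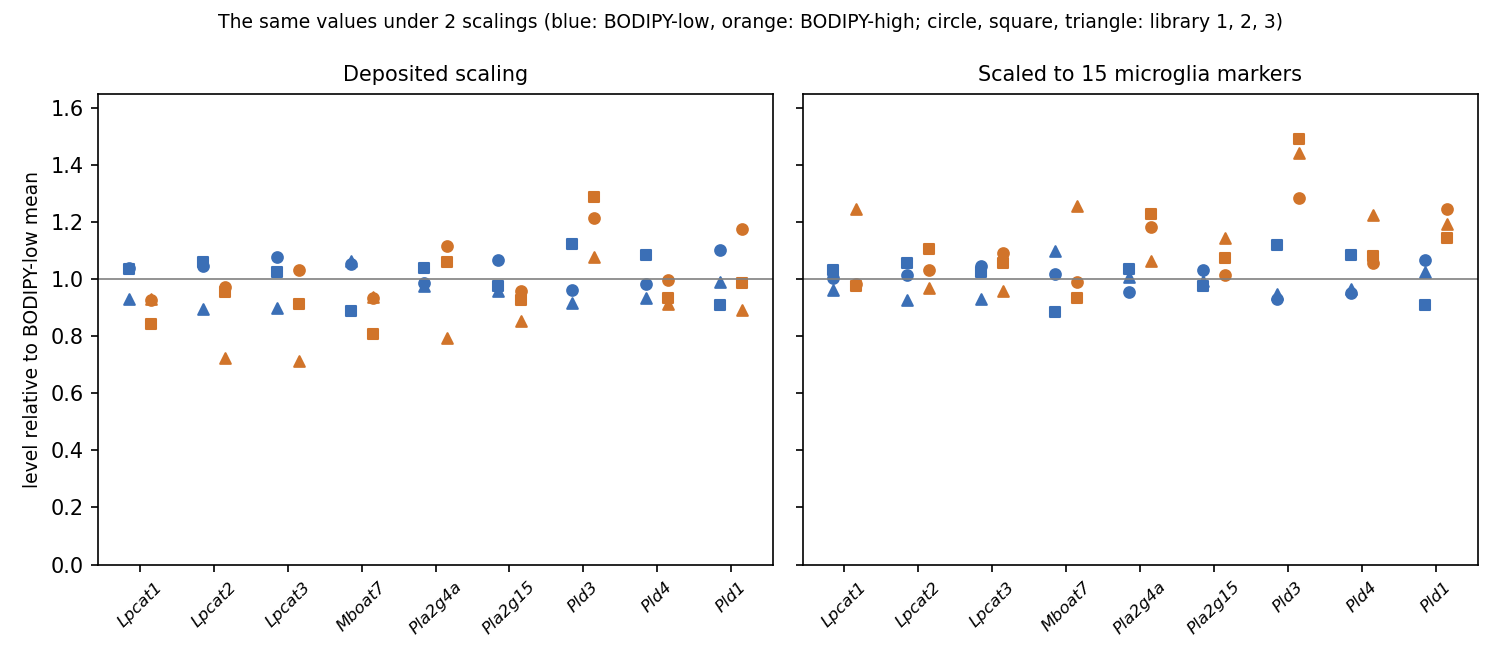
Level of each gene in each library relative to its mean in the BODIPY-low libraries (vertical axis), with the deposited scaling (left) and after division by the geometric mean of 15 microglia markers (right). On the left the BODIPY-high values of Lpcat2 and Lpcat3 lie mostly below 1, on the right around 1, and those of Pld3 lie above 1 in both.

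Other genes of phospholipid metabolism were taken from 7 lists chosen by function. Of 104 tested genes, 4 were called higher and 0 lower by limma (3.85%, against 2.03% and 0.0235% of all genes), with a median log2 change of 0.041. Among 15 other acyltransferases 0 passed (median 0.074). The smallest p values were those of Mboat2 and Agpat1. Mboat2, an acyltransferase of lysophosphatidylethanolamine, had 13 BODIPY-low reads in all against 114 BODIPY-high reads (limma adjusted p = 0.136, and 0.0364 with the block). Agpat1, of phosphatidic acid synthesis, had 742 ± 89.1 and 560.2 ± 76.9 normalized counts (limma adjusted p = 0.43). At an unadjusted p under 0.05, 2 were higher and 1 lower, and edgeR and DESeq2 called 0.

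Of 25 other phospholipases A and lysophospholipases, 1 rose (median 0.054). Pla2g7, the secreted PAF acetylhydrolase that inactivates PAF, went from 360, 236 and 635 normalized counts in the BODIPY-low libraries to 1465, 1751 and 5405 in the BODIPY-high libraries. No libraries overlapped and BODIPY-high library 3 stood far above the others. The log2 change was 2.66 ± 0.49 (SE; limma adjusted p = 0.0319) and the ratio of means 7.003, or 3.92 without BODIPY-high library 3, without which it no longer passed (limma adjusted p = 0.0566). Leaving out BODIPY-low library 1, BODIPY-low library 2 or the second BODIPY-high library also ended the call (limma adjusted p of 0.101 to 0.12), with log2 changes of 2.33 to 2.89. With all 6 libraries the adjusted p of Pla2g7 was 4.45e-05 with the block and 0.00346 in DESeq2. Markers of border-associated macrophages, neutrophils, monocytes and oligodendrocytes were highest in the same library, and their part in the rise of Pla2g7 was not tested. Pla2g5, a secreted phospholipase A2, counted 4 reads over BODIPY-low libraries against 79 over BODIPY-high libraries (limma adjusted p = 0.0518, and 0.0335 with the block). Pla2g2d, another secreted phospholipase A2 named here after its values were seen, passed with the block as well (102 and 2814 reads, adjusted p = 0.00177, against 0.076 in limma without it). DESeq2 called Pla2g5 (adjusted p = 0.0172) and Pla2g2d (adjusted p = 0.0147), and edgeR called neither (adjusted p of 0.0634 and 0.074). Of its BODIPY-high reads 2171 were in library 3, and the ratio of means of Pla2g2d, 24.3, was 8.86 without that library.

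Of 11 other phospholipases D and phosphodiesterases, 2 rose (median 0.16). Enpp2 encodes autotaxin, the secreted lysophospholipase D that makes lysophosphatidic acid, and was also counted as a choroid plexus marker here. It had 132, 255 and 1341 normalized counts in the low gate and 26481, 34209 and 30122 in the high gate, all far above the low gate. Its log2 change was 6.40 ± 0.68 (SE; limma adjusted p = 0.0046), and the ratio of means, 52.6, was 157 without BODIPY-low library 3. Pld5, a family member without known catalytic activity, was not detected in BODIPY-low libraries (0 reads) and had 50 reads over BODIPY-high libraries. With the BODIPY-low group set to its floor, 3 reads in all, the ratio was 15.3. That ratio is no lower bound, since the exact 95% lower limit from counting error was 11.97. Pld5 was near the threshold (limma adjusted p = 0.049). It was lost with the block (limma adjusted p = 0.0539) and when any 1 library was left out (limma adjusted p of 0.0745 to 0.211). Limma with a pseudocount of 0.5 or 5 or with TMM scaling (adjusted p of 0.0508 to 0.0701) and edgeR (adjusted p = 0.0558) did not call it either. DESeq2 called it (adjusted p = 0.012), as did limma without a filter (adjusted p = 0.0155) and scaled to microglia markers (adjusted p = 0.0421).

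Of 20 genes of phospholipid synthesis from head groups, 1 rose (median -0.024). Pcyt1b, the minor form of the rate-limiting enzyme of phosphatidylcholine synthesis, was counted once over BODIPY-low libraries (1 read, in library 2) against 78 reads over BODIPY-high libraries. The scaled ratio was 71.5, with an exact 95% interval for counting error of 12.5 to 2859 (limma adjusted p = 0.0276). Leaving out BODIPY-low library 1 or any of the BODIPY-high libraries ended the call (limma adjusted p of 0.0643 to 0.179). Pcyt2, of phosphatidylethanolamine synthesis, had 932 ± 135 and 1179 ± 166 normalized counts (limma adjusted p = 0.508).

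No gene passed limma among 11 phospholipases C (median 0.084), 7 receptors of lysophospholipids and PAF (median -0.078) or 15 genes of phosphatidic acid and lysosomal phospholipid turnover (median 0.006). At an unadjusted p under 0.05, 0, 3 and 1 genes of these lists were higher and 0, 1 and 1 lower, edgeR called 0, and DESeq2 called 1, the lysophosphatidic acid receptor gene Lpar1. Plcg2, the phospholipase C that signals below Trem2, had 10902 ± 102 and 11798 ± 916 normalized counts (log2 change 0.11 ± 0.089, SE; limma adjusted p = 0.783). Lpar1 had 5 reads over BODIPY-low libraries and 145 over BODIPY-high libraries (limma adjusted p = 0.143), of which 113 were in BODIPY-high library 3. S1pr1, a receptor of sphingosine phosphate, had 3929, 3695 and 3583 normalized counts in the low gate and 4290.3, 4990.4 and 4616 in the high gate. All BODIPY-high libraries were higher, but it did not pass (log2 change 0.31 ± 0.095, SE; limma adjusted p = 0.22). Plcg1, the close relative of Plcg2, had 1835 ± 99.7 and 2179.9 ± 354 (limma adjusted p = 0.615). The lysosomal galactosidase gene Gla had 373 ± 89.3 and 544 ± 34.9 (limma adjusted p = 0.316). The cholesterol exporter of lysosomes Npc1 had 3223 ± 86.7 and 2741 ± 295 (limma adjusted p = 0.485).

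**Figure D4:**
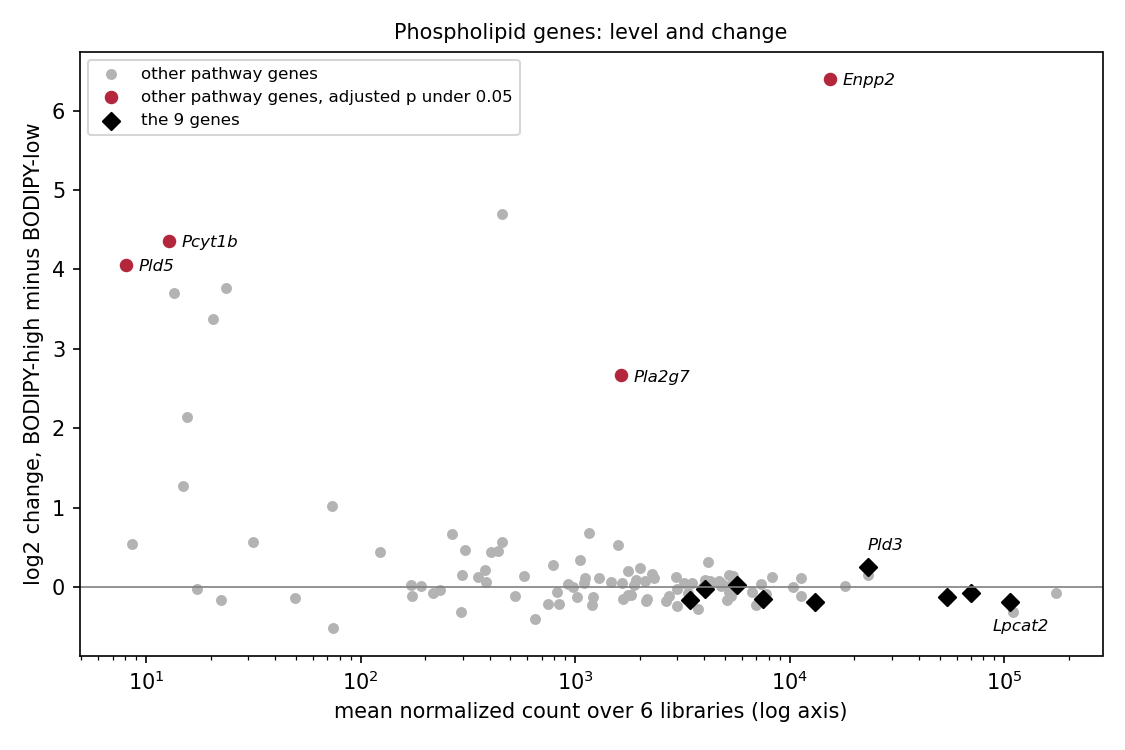
Mean normalized count over the 6 libraries (horizontal log axis) and log2 change between gates (vertical axis) of the 9 genes (black diamonds) and of 104 other tested genes of phospholipid metabolism (grey, or red where called by limma). The 9 genes lie close to 0 at high levels, and of the 4 red genes Pld5 and Pcyt1b had means under 50.

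The gene of most similar pattern was looked up for each of the 9 among 7236 tested genes with a mean of at least 500, by Pearson coefficient of log2 values over the 6 libraries. These were Tspan13 for Lpcat2, Tspan7 for Lpcat3, Crebbp for Lpcat1, Krr1 for Mboat7, Ficd for Pla2g4a, Trmt12 for Pla2g15, Glud1 for Pld3, Sap130 for Pld4 and Helz for Pld1. The coefficients ran from 0.980 to 0.999. With 6 libraries that share scaling and, by number, may share animals, they describe the libraries only. Among the 9 genes themselves the lowest coefficient, -0.922, was that of Pld3 and Mboat7.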

How the data were processed

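Libraries were made with SmartSeq v4 and Nextera XT, which do not mark strand, per the labels' protocols. Reads were aligned and counted per gene with STAR, per the submitters' processing notes. The values deposited by the authors are a signal, gene counts divided by a size factor per library. Whole reads were recovered from them (tolerance 0.05 of a read), 34899413 to 39220494 per library. The annotation used for counting is not given in the sources used here.

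Genes with at least 10 normalized counts in 3 or more libraries (12767 of 15912) were tested with limma 3.58.1 in R 4.3.3 on log2(normalized count + 1), with Benjamini-Hochberg adjustment over all of them. Alternatives were another pseudocount, another or no filter, TMM scaling, edgeR 4.0.16, DESeq2 1.42.0, leaving out each library, and the library number as a block. Same-numbered libraries deviated together (r = 0.534, 0.396 and 0.513 over 10912 genes). The pairing is taken from the numbers in the sample titles, and the labels do not say that a number marks a shared pool or that samples are separate pools. The p-values thus rest on a spread between samples that may be technical. The 9 genes and all lists were chosen with earlier results of these data known. From each pathway list the 2 genes of smallest p and all called genes were named, and for each of the 9 genes the gene of highest Pearson coefficient. Marker genes at 0 were named after their values were seen. Positions are from GENCODE M21 and promoters from RefSeq, both GRCm38. The models were tested on simulated data in which libraries were not paired and all genes had the same fixed dispersion. Of 100 genes with a log2 change of size 1 limma recovered 89, and of 100 with a change of size 2 it recovered 100, with 8 false calls. Genes whose libraries vary more than that dispersion were not represented, so the recovery does not measure power in these data. Changes as small as those of the 9 genes were not simulated.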

Additional observations from a re-analysis of the deposited data

How the results depend on the processing

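No member was called with another pseudocount, filter, scaling by TMM, edgeR, DESeq2 or any 1 library left out. The replicate block left the members' calls at 0 and changed no other member's call. It moved genes called higher from 259 to 558 and lower from 3 to 59. A mean of at least 50 gave 104 higher, 1 lower and 2 pathway genes. DESeq2 gave 464, 32 and 7, and edgeR gave 1 lower. With 1 library left out there were 15 to 271 higher, 0 to 2 lower and 1 to 4 pathway genes called, and the members' median was -0.168 to -0.049, the last without BODIPY-high library 3. Pla2g4a then ran from -0.123 to 0.122 and Pld1 from -0.088 to 0.112. The fewest higher calls, 15, came without BODIPY-high library 2. Scaling to microglia markers, added after seeing the data, gave 1 member called, 0 genes lower and a members' median of 0.106, with changed signs for Lpcat1 (0.085), Lpcat2 (0.051), Lpcat3 (0.051), Mboat7 (0.077), Pla2g4a (0.209), Pla2g15 (0.106) and Pld4 (0.164). This scaling shifts the median of all genes by 0.238, and every well expressed gene moves by nearly that amount. The changes of these 7 relative to the shift, -0.187 to -0.029, are thus those of the deposited scaling by construction. They are no second result. The causes were not tested. Depth limits Pld5, Pcyt1b, Pla2g5, Mboat2 and Lpar1, with 0 to 13 reads in the BODIPY-low gate.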
